A study of Mus musculus with 17 samples.

Results

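Perivascular macrophages are the resident macrophages of the spaces that surround blood vessels at the border of the brain, and 9 genes known from these cells were followed here. They were taken by name, with no threshold on their values: Mrc1, Cd163, Lyve1, Stab1, F13a1, Pf4, Cd74, H2-Aa and H2-Ab1, which are 9 of the 26131 genes in the count table. Nuclear RNA had been counted in single nuclei of the posterior brain from 17 female mice aged 2.3 months. All mice, saline controls included, carried a knock-in of the human transferrin receptor (TfR) in homozygous form, and all received 4 weekly intravenous doses with harvest 72 hours after the last. The groups were saline (n = 4), a free antisense oligonucleotide against the long noncoding RNA Malat1 at 2 mg per kg (Malat1 ASO, n = 4), an anti-TfR antibody carrying such an oligonucleotide at 50 mg per kg (anti-TfR:Malat1, n = 6), and the oligonucleotide transport vehicle, which also binds TfR, at 50 mg per kg (OTV:Malat1, n = 3). The design compared both carriers with each other and with the controls; the questions asked of the 9 genes were how they mark the perivascular macrophages against the microglia and whether a treatment moved them.

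Perivascular macrophages and microglia are related brain macrophages, the first lying along vessels and the second throughout the tissue. Macrophages of the vessel border take up material from the fluid around vessels through scavenger and sugar-binding receptors. Mrc1 is the mannose receptor CD206, Cd163 the scavenger receptor for haemoglobin bound to haptoglobin, Lyve1 a receptor for hyaluronan, and Stab1 the scavenger receptor stabilin. F13a1 is the catalytic subunit of clotting factor XIII, which cross-links fibrin, and Pf4 is a small chemokine best known from platelets. H2-Aa and H2-Ab1 are the alpha and beta chains of an MHC class II molecule, which displays peptides to helper T cells, and Cd74 is the invariant chain that escorts class II molecules before they are loaded.

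Positions are from GENCODE M21 on GRCm38, the sequence of the mm10 build named in the submitters' processing notes. Mrc1 spans chr2:14229392-14332057 on the plus strand, Cd163 chr6:124304656-124330527 on the plus strand, Lyve1 chr7:110850607-110863239 on the minus strand and Stab1 chr14:31139013-31168641 on the minus strand. F13a1 spans chr13:36867178-37050244 on the minus strand and Pf4 chr5:90772435-90773383 on the plus strand. H2-Aa (chr17:34282744-34287823, minus strand) and H2-Ab1 (chr17:34257689-34269419, plus strand) lie on the same chromosome. The genes differ widely in length, from 0.949 kb for Pf4 to 183 kb for F13a1.

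The promoter windows of Mrc1 and F13a1 are shown beside those of the MHC class II genes H2-Aa and H2-Eb1. Inside the class, Mrc1 and F13a1 were lower and H2-Eb1 higher in nuclei with class II RNA, a group made with H2-Aa itself. A part of the promoters in this was not tested. Each window runs from 250 bases before to 50 bases after the start of a RefSeq transcript (GRCm38.p6), printed 5′ to 3′ along the gene; a window was held for 6 of the 9 members. In Mrc1 (chr2:14229164-14229463, plus strand) and F13a1 (chr13:37050195-37050494, minus strand), the members with the most UMIs in perivascular macrophages, the capitals mark GAGGAAG or its reverse complement CTTCCTC, a core that fits ETS-family factors such as the macrophage factor PU.1.
Mrc1: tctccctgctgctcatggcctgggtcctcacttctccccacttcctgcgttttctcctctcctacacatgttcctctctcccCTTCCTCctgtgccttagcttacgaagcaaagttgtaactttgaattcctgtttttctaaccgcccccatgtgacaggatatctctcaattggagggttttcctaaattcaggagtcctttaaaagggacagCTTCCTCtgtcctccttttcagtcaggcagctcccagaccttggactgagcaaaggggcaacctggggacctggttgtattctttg
F13a1: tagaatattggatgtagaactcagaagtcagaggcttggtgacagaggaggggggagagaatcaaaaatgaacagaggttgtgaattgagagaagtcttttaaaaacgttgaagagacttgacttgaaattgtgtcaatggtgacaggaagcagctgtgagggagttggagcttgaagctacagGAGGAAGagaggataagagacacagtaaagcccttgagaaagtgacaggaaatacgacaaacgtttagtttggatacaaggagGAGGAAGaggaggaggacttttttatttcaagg
In H2-Aa (chr17:34287774-34288073, minus strand) and H2-Eb1 (chr17:34305617-34305916, plus strand), a further class II beta chain that is no member, the capitals mark ATTGG or its reverse complement CCAAT, the Y box core of class II promoters.
H2-Aa: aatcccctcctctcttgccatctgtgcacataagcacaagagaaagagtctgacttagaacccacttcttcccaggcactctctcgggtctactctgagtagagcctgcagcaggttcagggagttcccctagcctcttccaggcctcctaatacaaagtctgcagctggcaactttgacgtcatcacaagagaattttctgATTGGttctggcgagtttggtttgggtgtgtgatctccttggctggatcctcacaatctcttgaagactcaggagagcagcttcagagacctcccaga
H2-Eb1: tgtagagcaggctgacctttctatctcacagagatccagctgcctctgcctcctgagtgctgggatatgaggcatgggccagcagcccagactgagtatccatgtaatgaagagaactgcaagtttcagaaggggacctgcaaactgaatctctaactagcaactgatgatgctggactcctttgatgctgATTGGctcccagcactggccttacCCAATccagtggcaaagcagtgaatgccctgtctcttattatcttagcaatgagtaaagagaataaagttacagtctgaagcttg

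Searched on both strands, GAGGAAG was in the windows of 3 of the 6 matched members (Mrc1, F13a1 and Pf4), against 13.6% of 32851 windows of the same length. ATTGG was in all 6 matched windows and in 37.4% of all windows; Mrc1 and F13a1 hold it in lower case above. TGCTGA, a partial site for MAF-family factors, was in the Stab1 window alone among those 6 and in 19.5% of all windows; in the H2-Eb1 window it overlaps the first ATTGG. These matches describe letters in these windows and are not evidence of binding.

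The table held 284074 nuclei, 13841 to 18365 per animal. The class of perivascular macrophages was taken as the 596 nuclei with that deposited label in deposited cluster 11, of 657 with the label in all clusters, and microglia as the 8092 nuclei so labelled in the same cluster. Perivascular macrophages numbered 22 to 57 per animal and gave 19630 to 63236 UMIs (unique molecular identifiers, counted RNA molecules) per animal; the median nucleus held 925 UMIs, and the median microglial nucleus 989. Their mean share of all nuclei was 0.210% ± 0.0409 in saline (SD, n = 4), 0.162% ± 0.0251 in Malat1 ASO (n = 4), 0.241% ± 0.0371 in anti-TfR:Malat1 (n = 6) and 0.214% ± 0.0844 in OTV:Malat1 (n = 3). Of 273792 barcodes, 10044 (3.67%) occurred in more than 1 animal, among them those of 32 perivascular macrophage nuclei, and none was shared by 2 perivascular macrophage nuclei. Malat1, the target, was at 52077 to 68874 CPM in the perivascular macrophages of the 4 saline animals and at 36819 to 45069 CPM in the 3 OTV:Malat1 animals, without overlap. CPM is the gene's UMIs over all UMIs of the class in an animal, times 1e6.

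Since labels and clusters came from the expression of these same nuclei, the differences below describe the class and do not test its label. The class was set beside a list of other border macrophage genes, chosen with earlier results of these data known. Of 33 measured genes of that list, the members left out, 20 had a median per-animal difference of 1 or more on the log2(CPM + 1) scale in favour of perivascular macrophages and 2 in favour of microglia; the median of the 33 was 2.31. Among the higher genes were Dab2 (2554 against 18.7 CPM), an endocytosis adaptor, Apoe (1545 against 171 CPM), the lipid carrier, and Lyz2 (181 against 3.49 CPM), lysozyme. Over the 2335 genes of 100 CPM or more in perivascular macrophages, 251 (10.7%) were higher by as much and the median was 0.07. Of 13 microglial genes, none was higher and 12 were lower by as much, with a summed level of 2772 CPM in perivascular macrophages and 9974 CPM in microglia.

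Markers of other cells were not all absent from the class. The list for neurons summed to 1827 CPM, within 803 to 2751 CPM across all animals, and to 1767 CPM in microglia, so nuclei of both classes carried neuronal RNA at a like level. The oligodendrocyte list summed to 619 CPM, and to 616 CPM in microglia. Cd3d, Cd3g, Themis and Skap1 of the T cell list, Ms4a1, Cd79a, Pax5 and Ebf1 of the B cell list and Ly6c2, Plac8 and Chil3 of the monocyte list had 0 UMIs; 0 of 595645 UMIs allows up to 5.04 CPM, taken as 3 UMIs. Of the other genes of these lists, Bank1 (1036 CPM), an adaptor known from B cells, and Ccr2 (112 CPM), the chemokine receptor of monocytes, were highest. Trbc2 had 5 UMIs, Cd79b 2, and Trac and Vcan 1 each. Endothelial genes summed to 3.36 CPM and mural genes to 10.1 CPM.

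All 9 genes were higher in perivascular macrophages than in microglia over all nuclei. Because the class labels were made from expression, the difference between the classes is a description and was not tested. The plot of levels in both classes shows every animal.

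**Figure D1:**
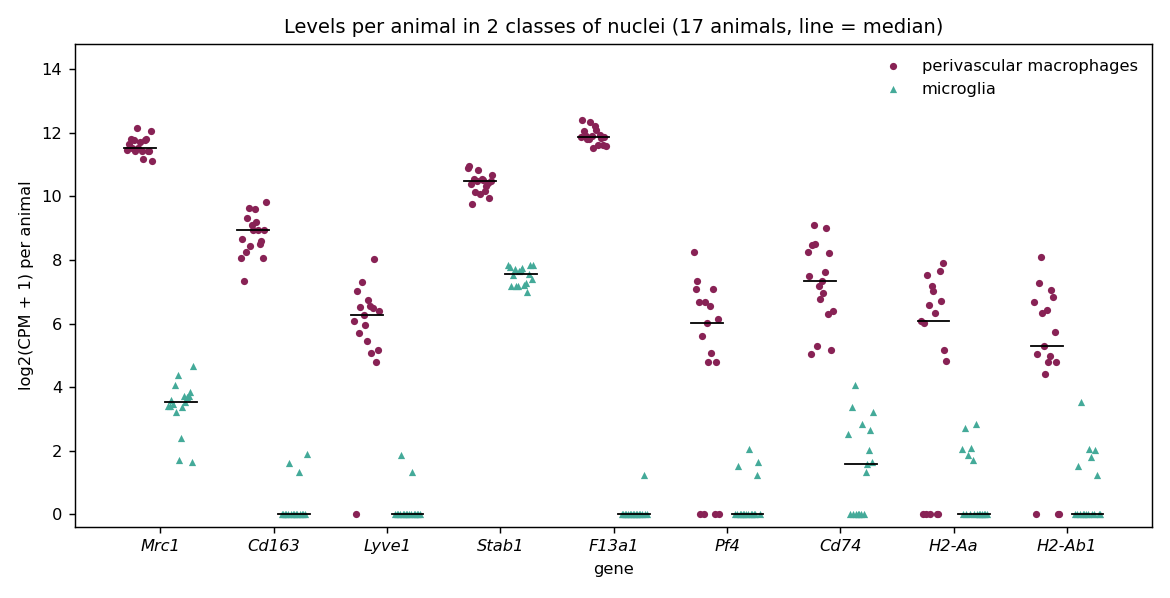
Level of each gene per animal, as log2(CPM + 1), in perivascular macrophages (circles) and microglia (triangles); each point is 1 of 17 animals and the black line is the median. Mrc1, Cd163, Stab1, F13a1 and Cd74 were higher in perivascular macrophages in 17 of 17 animals, and only Stab1 and Mrc1 had a UMI in the microglia of every animal.

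Of the scavenger receptors, Mrc1 stood at 3108 CPM (1851 UMIs) in perivascular macrophages and 10.7 CPM (89 UMIs) in microglia, a ratio of 290 (95% exact interval 234 to 363, which, like all intervals on pooled UMIs here, covers counting error only). Cd163 was at 507 CPM against 0.361 CPM, the latter from 3 UMIs, and the ratio was 1404 (476 to 6847). Lyve1 was at 89.0 CPM against 0.241 CPM from 2 UMIs, with a ratio of 370 (97.4 to 3131). The receptor with the narrowest gap was Stab1, at 1393 CPM against 185.0 CPM with a ratio of 7.53 (6.91 to 8.20): 1351 of 8092 microglial nuclei (16.7%) held a Stab1 UMI and 21 held 3 or more, so it was found in both kinds of macrophage.

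F13a1 separated the classes most. Perivascular macrophages held 2277 UMIs of F13a1 (3823 CPM) and the 8092 microglia held 1 UMI; the ratio has a counting interval of 5694 to 1.25e+06. The chemokine Pf4 was at 73.9 CPM from 44 UMIs against 0.481 CPM from 4 UMIs, a ratio of 153 (55.9 to 588).

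The 3 class II members were low in both classes and still apart. The 16 other listed class II presentation genes were divided. By a median log2 difference of 1 or more, 2 of them were higher in perivascular macrophages and 6 were lower. The 2 were H2-Eb1 (139 against 2.17 CPM) and Ciita (78.9 against 2.17 CPM). The 6 held only 1 to 11 UMIs each in perivascular macrophages, and an animal with no UMI there cannot be higher. Over pooled nuclei these 6 lay on both sides, such as Rfxap at 18.5 against 14.4 CPM and H2-Ob at 1.68 against 6.02 CPM. The median of the 16 was -0.32, and the 16 summed to 1622 CPM against 1892 CPM in microglia. Cd74 was at 212 CPM against 3.37 CPM, a ratio of 62.8 (41.4 to 98.2). H2-Aa was at 90.7 CPM and H2-Ab1 at 63.8 CPM, each against 1.20 CPM from 10 UMIs in microglia, with ratios of 75.3 (38.0 to 166) and 53.0 (25.9 to 119). Per animal H2-Aa and H2-Ab1 were less even: H2-Aa was higher in perivascular macrophages in 12 of 17 animals and H2-Ab1 in 14. Lyve1 was higher in 16 and Pf4 in 13. For all 4 genes, each remaining animal held no UMI of the gene in perivascular macrophages.

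Within each treatment group the order of the classes was the same in the means for all 9 genes. For Mrc1 the mean per-animal log2 difference was 8.04 ± 1.68 in saline (SD, n = 4), 8.15 ± 0.10 in Malat1 ASO (n = 4), 8.50 ± 0.88 in anti-TfR:Malat1 (n = 6) and 7.91 ± 0.27 in OTV:Malat1 (n = 3). The corresponding means for F13a1 were 11.43 ± 0.69, 12.06 ± 0.24, 11.88 ± 0.27 and 11.98 ± 0.31. For Stab1 they were 2.74 ± 0.42, 2.92 ± 0.46, 2.99 ± 0.37 and 3.04 ± 0.23, with every animal between 2.13 and 3.32. For Cd163 they were 8.39 ± 0.47, 8.08 ± 0.56, 8.83 ± 0.69 and 8.59 ± 0.67. For Pf4 they were 2.02 ± 2.36, 6.96 ± 1.01, 5.70 ± 1.60 and 1.87 ± 3.23 in the same order, and for Cd74 4.13 ± 1.05, 5.84 ± 3.00, 6.52 ± 1.07 and 6.29 ± 1.93. In perivascular macrophages 2 saline and 2 OTV:Malat1 animals held no Pf4 UMI, and the median Pf4 difference in OTV:Malat1 was 0.

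Ranked by the median per-animal log2 difference among the 2335 genes of 100 CPM or more, F13a1 was first (11.88), Cd163 was at rank 5 (8.49), Mrc1 at rank 8 (8.06), Cd74 at rank 28 (5.71) and Stab1 at rank 84 (2.97). The other 4 members were below 100 CPM and were not ranked. The 5 ranked members were all past a difference of 1, beside 10.7% of the 2335 genes, a share that the choice of known marker genes makes uninformative. The 8 other genes with the largest differences over the 17 animals were Colec12 (9.13), a scavenger receptor of the collectin family, Ms4a7 (8.71), Ms4a4a (8.57), Cd38 (8.18), an enzyme that consumes NAD, Ifi203 (8.09), Aoah (7.86), which deacylates bacterial lipopolysaccharide, F630028O10Rik (7.63) and Mndal (7.50).

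Levels of different genes are set side by side per length. Per kb of gene span in perivascular macrophages, Pf4 had 77.8 CPM per kb, Stab1 47.0, Mrc1 30.3 and Cd74 24.0 CPM per kb. F13a1 followed with 20.9, Cd163 with 19.6 and H2-Aa with 17.8 CPM per kb, and Lyve1 (7.04) and H2-Ab1 (5.44) were lowest. F13a1, the gene with the most UMIs, was therefore in the middle of the order, and Pf4, with 44 UMIs, was at its top. The span includes introns, and the sources used here do not give whether intronic reads were counted. UMI counts need not scale with the span. The order is one of span-scaled levels and not of molecules per nucleus.

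The share of perivascular macrophage nuclei with at least 1 UMI was 82.2% for Mrc1, 79.5% for F13a1 and 67.6% for Stab1. It was 28.7% for Cd163, 9.90% for Cd74, 6.88% each for Lyve1 and H2-Aa, 4.87% for Pf4 and 4.70% for H2-Ab1. After each nucleus was thinned to 500 UMIs, so that depth was equal in all classes, Mrc1 was seen in 69.5% of perivascular macrophage nuclei (95% exact interval 65.6 to 73.1) and in 0.556% of microglia (0.406 to 0.743). F13a1 was then seen in 70.8% (67.0 to 74.4) and 0.0124%, and Stab1 in 45.3% (41.3 to 49.4) and 8.89% (8.27 to 9.53). H2-Ab1, the least often seen member, was still found in 2.18% (1.17 to 3.70) of thinned perivascular macrophage nuclei and in 0.0371% (0.00765 to 0.108) of thinned microglia. Of the 596 nuclei, 583 (97.8%) held a UMI of at least 1 member and 430 (72.1%) held both Mrc1 and F13a1.

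Outside the macrophages, the plot of levels over classes of nuclei shows each gene at 7.62 CPM or less, the highest being Stab1 in vascular nuclei, and perivascular macrophages were the highest class for all 9. They held 67.7% of all Mrc1 UMIs in the table while making up 596 of 284074 nuclei. Of the Stab1 UMIs, 24.9% were in perivascular macrophages and 46.1% in microglia.

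**Figure D2:**
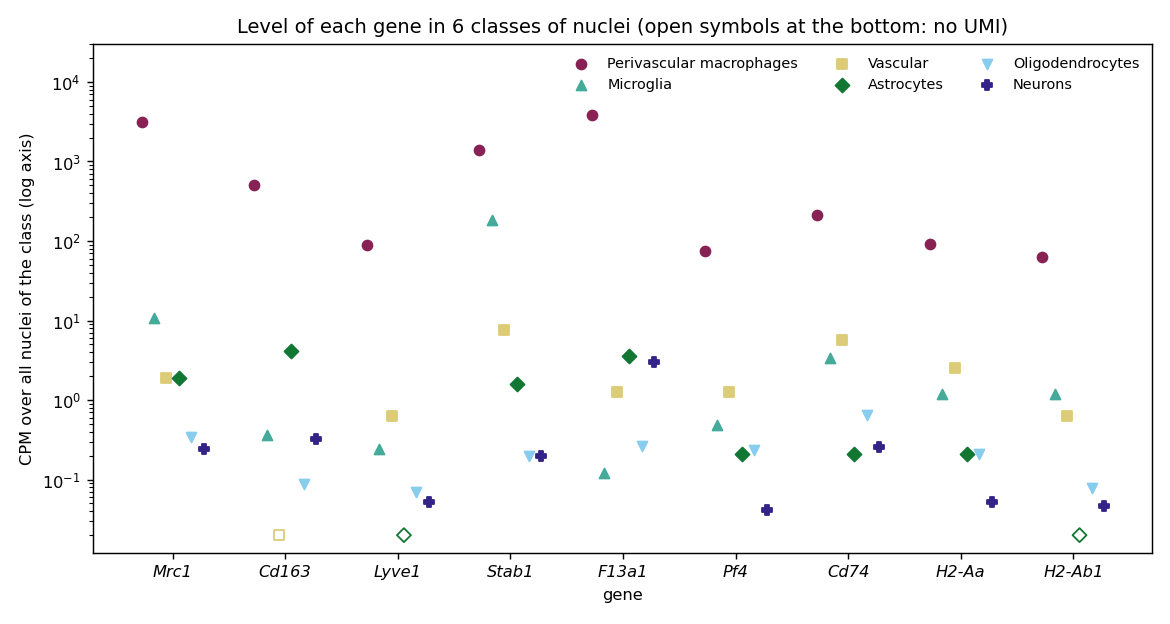
Level of each gene as CPM over all nuclei of a class, on a log axis, in 6 classes; open symbols at the bottom mark genes without a UMI in that class. Perivascular macrophages are the highest class for each gene, Stab1 in microglia (185.0 CPM) is the highest point of another class, and F13a1 stands at 2.97 CPM in neurons and 3.61 CPM in astrocytes.

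Several members, F13a1 and Cd163 among them, also had a low level in cells that are not macrophages. In vascular nuclei Stab1 was at 7.62 CPM (12 UMIs) and Cd74 at 5.72 CPM (9 UMIs). F13a1 had 2737 UMIs in 173734 neurons, 47.4% of all its UMIs, neurons being the class with the most RNA; its level there was 2.97 ± 0.39 CPM per animal (SD, n = 17), above Mrc1 in 17 of 17 animals. In neurons F13a1 gave 12.3 UMIs for each UMI of Mrc1 (10.7 to 14.2), and in perivascular macrophages 1.23 (1.16 to 1.31). The ratio to Mrc1 was also higher in neurons than in perivascular macrophages for each of the other members, such as Cd74 at 1.07 against 0.0681 and Lyve1 at 0.216 against 0.0286. The source of these neuronal UMIs was not tested. Among neuron clusters the level ran from 0.741 CPM (0.550 to 0.976) in cluster 7 to 6.85 CPM (4.59 to 9.84) in cluster 16. Cd163 was at 4.14 CPM (2.94 to 5.66) in astrocytes, from 39 UMIs in 35 of 4793 nuclei, against 1.91 CPM for Mrc1 there; the ratio of Cd163 to Mrc1 was 2.17 (1.21 to 4.02) in astrocytes and 0.163 (0.144 to 0.184) in perivascular macrophages. Cd163 was above Mrc1 in the astrocytes of 11 of 17 animals; the 39 UMIs over 17 animals make these levels imprecise.

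Inside the class, the MHC class II members parted from Mrc1, Cd163, Stab1 and F13a1. Of the 596 nuclei, 77 (12.9%, 10.3 to 15.9) held a UMI of Cd74, H2-Aa or H2-Ab1. Their median depth was 976 UMIs, against 923 UMIs in the 519 nuclei without one. Since the nuclei were grouped by genes of the same table, and that table also made the clusters, what follows describes these nuclei and was not tested.

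The class II genes came together: 28 of the 41 nuclei with H2-Aa (68.3%) also held Cd74, while Cd74 was in 9.90% of all 596 nuclei. H2-Eb1, the further class II beta chain whose promoter is shown above, was in 41 of the 77 nuclei (53.2%) and in 9 of the 519 (1.73%), at 855 against 27.2 CPM. Ciita, the master activator of class II transcription, was at 471 against 17.5 CPM, and H2-DMb1, which helps to load peptides, at 223 against 17.5 CPM. Of the 16 listed class II presentation genes that are no members, 9 were higher, 5 of them with an interval above 1, and 6 were lower, among them the costimulatory gene Cd86 at 272 against 451 CPM (ratio 0.605, 0.372 to 0.938). Only 4 of the 16 had 100 CPM or more in the class: 2 had an interval above 1 and 1 below. Beside them, 9.43% of all 2334 genes of that level were above and 9.64% below.

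Mrc1, Cd163, Stab1 and F13a1 were lower in the same 77 nuclei. Mrc1 was seen in 62.3% of them and in 85.2% of the others, at 1734 against 3323 CPM, a ratio of 0.522 (0.436 to 0.620), and was lower in 15 of 17 animals. F13a1 was at 2068 against 4098 CPM, a ratio of 0.505 (0.429 to 0.591), and Stab1 at 582 against 1521 CPM, a ratio of 0.383 (0.279 to 0.514), both lower in 17 of 17 animals. Cd163 was seen in 11.7% against 31.2% of nuclei, with a ratio of levels of 0.333 (0.184 to 0.559). It was lower in 13 and higher in 4 of 17 animals. Counts of animals lean towards lower here, since each had 1 to 9 nuclei with class II RNA and these often hold no UMI of a sparse gene. The ratios for Lyve1 (0.814, 0.284 to 1.91) and Pf4 (1.64, 0.693 to 3.48) had intervals that include 1. Of the 77 nuclei, 63 (81.8%) still held Mrc1 or F13a1.

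**Figure D3:**
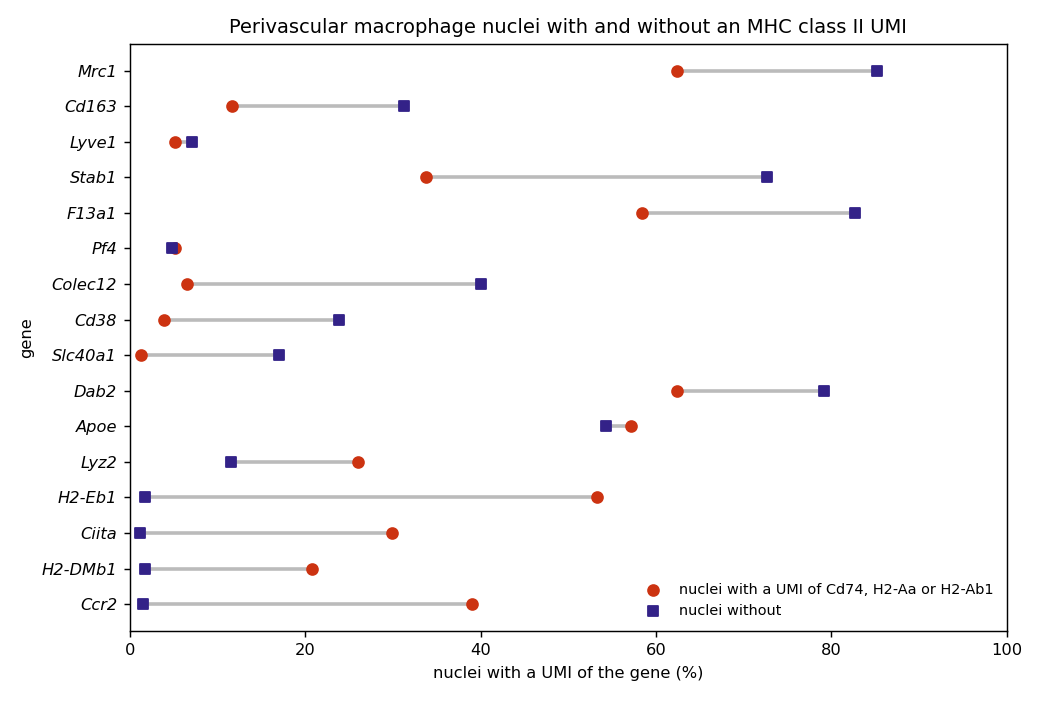
Share of nuclei with at least 1 UMI of each gene, in percent, among the 77 perivascular macrophage nuclei with a UMI of Cd74, H2-Aa or H2-Ab1 (red circles) and the 519 without (blue squares). Mrc1, Cd163, Stab1 and F13a1 lie lower in the nuclei with class II RNA, while H2-Eb1, Ciita, H2-DMb1 and Ccr2 lie higher.

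Other border macrophage genes were divided. Of 33 measured, 21 were lower in the nuclei with class II RNA, 11 of them with a counting interval of the ratio below 1, and 11 were higher, 5 of them with an interval above 1. Among those of 100 CPM or more, 9 of 22 had an interval below 1 (40.9%) and 5 above (22.7%), beside 9.64% and 9.43% of all 2334 such genes. With 2 or more class II UMIs required, 7 of the 22 were below (31.8%) and 6 above (27.3%), beside 8.53% and 8.74% of all 2334. Colec12 was at 248 against 895 CPM, Cd38 at 49.5 against 365 CPM, the iron exporter Slc40a1 at 24.8 against 231 CPM and Dab2 at 1263 against 2756 CPM in nuclei with and without class II RNA. Cbr2, Cd209f and Cd209b, picked after their values were seen, had 0 UMIs among the 80747 UMIs of the 77 nuclei and 40, 29 and 17 UMIs in the others; the interval of the ratio reached 1.55 for Cd209b, and Cd209a was at 24.8 against 15.5 CPM. Among the higher genes, Lyz2 was at 359 against 153 CPM, the leukocyte phosphatase Ptprc at 954 against 555 CPM and the complement gene C1qa at 433 against 239 CPM over pooled nuclei. Apoe was at 2427 against 1406 CPM but was higher in 8 animals and lower in 9, and was seen in 57.1% and 54.3% of nuclei.

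The monocyte receptor Ccr2 was at 718 CPM in the nuclei with class II RNA and at 17.5 CPM in those without, and was higher in 15 of 17 animals. It was seen in 30 of 77 and 8 of 519 nuclei. Of the dendritic cell list, Flt3 was at 49.5 against 5.83 CPM (4 and 3 UMIs), Clec9a at 12.4 against 3.88 CPM (1 and 2 UMIs), Irf8 at 136 against 122 CPM and Zbtb46 at 37.2 against 91.3 CPM, while Xcr1 had 0 UMIs in the class. No other gene of the monocyte list had a UMI in the 77 nuclei. Of the other lists, Bank1 was lower in these nuclei at 582 against 1107 CPM (ratio 0.526, 0.382 to 0.709), and the microglial genes Cx3cr1, at 508 against 239 CPM (2.13, 1.45 to 3.05), and P2ry12, at 359 against 565 CPM (0.635, 0.418 to 0.932), lay on opposite sides. The oligodendrocyte gene St18 had 6 and 4 UMIs, and the neuronal RNA Meg3 was at 384 against 559 CPM (0.686, 0.458 to 0.996). The part of another cell type in the class II nuclei was not tested. With 2 or more class II UMIs required, 51 nuclei were kept, and Mrc1 was at 1615 against 3260 CPM, Cd163 at 90.7 against 549 CPM and Stab1 at 436 against 1491 CPM, the same direction for each. The Pf4 ratio was then 2.52 (1.07 to 5.35). Of the 16 other class II presentation genes 6 were then higher and 9 lower, and the interval for Cd86 (0.436 to 1.21) included 1.

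Animals differed in how many nuclei carried class II RNA, and the groups overlapped. In saline the shares were 13.8%, 25.0%, 3.33% and 7.32% of the class in replicates 1 to 4. They were 17.9%, 8.33%, 6.25% and 18.2% in Malat1 ASO. In the 3 OTV:Malat1 animals 7 of 27 (25.9%), 8 of 57 and 2 of 29 nuclei (6.90%) carried it. The 6 anti-TfR:Malat1 animals ranged from 5.13% to 23.1%. Each group thus spanned most of the whole range, and single shares rest on 1 to 9 nuclei; the means were 12.4% ± 9.46 (SD, n = 4), 12.7% ± 6.25 (n = 4), 15.6% ± 9.61 (n = 3) and 12.4% ± 6.08 (n = 6).

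The treatments were compared on UMIs summed per animal, fitted by edgeR's quasi-likelihood test with Benjamini-Hochberg adjustment over all genes tested. Low counts limited the test: 964 genes passed the filter in perivascular macrophages, among them Mrc1, Cd163, Stab1, F13a1 and Cd74, while Lyve1, Pf4, H2-Aa and H2-Ab1 did not. None of the 5 members passed an adjusted p of 0.05 in any of the 4 comparisons, and neither did any other of the 964 genes (0% called in each). At an unadjusted p under 0.05 there were 35 genes for OTV:Malat1 against saline, 39 for anti-TfR:Malat1, 40 for Malat1 ASO and 43 for OTV:Malat1 against anti-TfR:Malat1. DESeq2 called 0 genes in each as well. Malat1 itself, lower by 0.65 (log2, SE 0.17) in OTV:Malat1 than in saline, had an adjusted p of 0.474 in this class; it passed (0.00232) when the deposited batch number was a block. A fall in UMIs per class can come from fewer RNA molecules in each nucleus or from other nuclei being captured, which cannot be told apart here.

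**Figure D4:**
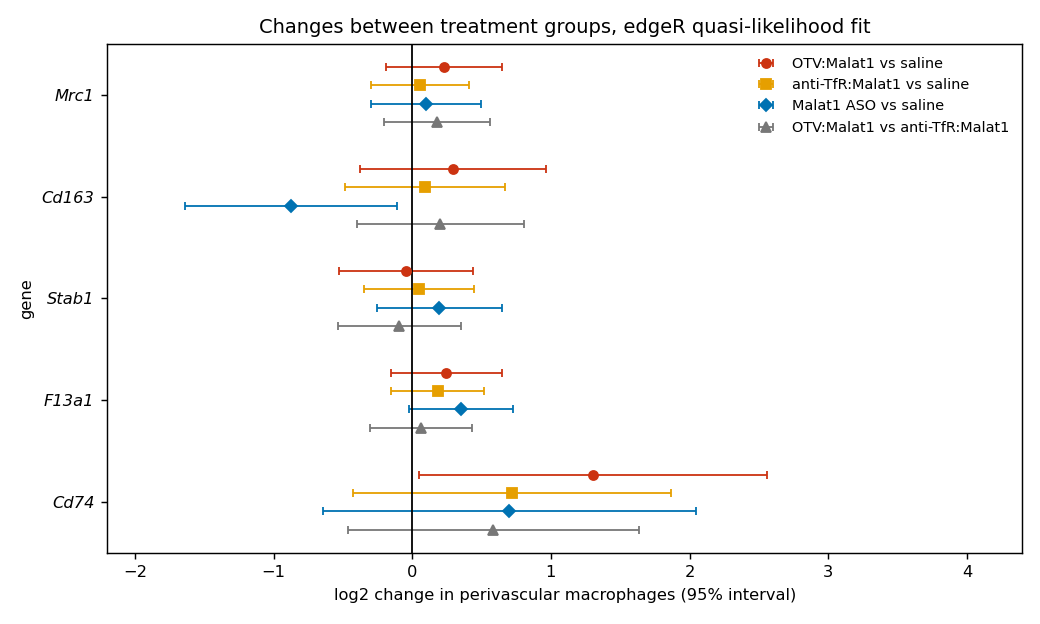
log2 change of the 5 tested members in perivascular macrophages with 95% intervals from the edgeR fit, for 4 comparisons between treatment groups. Most intervals include 0; Cd74 in OTV:Malat1 against saline and Cd163 in Malat1 ASO against saline do not, and neither passed the adjustment over 964 genes.

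Mrc1 was at 2779, 2759, 4246 and 2227 CPM in the 4 saline animals and at 3513, 2752 and 4532 CPM in the 3 OTV:Malat1 animals. It was at 2810, 3205, 3622 and 2955 CPM in Malat1 ASO and at 2334 to 3562 CPM, with a median of 3131, in the 6 anti-TfR:Malat1 animals. All groups overlapped. The log2 change against saline was 0.23 (-0.19 to 0.65) for OTV:Malat1, 0.05 (-0.30 to 0.41) for anti-TfR:Malat1 and 0.10 (-0.30 to 0.49) for Malat1 ASO, with adjusted p of 0.981 to 0.994. On the fold scale the intervals against saline reached from 0.813 to 1.57. Between the carriers the log2 difference, OTV:Malat1 over anti-TfR:Malat1, was 0.18 (-0.21 to 0.56; adjusted p = 0.998).

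Stab1 was at 1376, 991, 1439 and 1650 CPM in saline and at 1506, 1139 and 1421 CPM in OTV:Malat1. Its values were 1907, 1986, 1346 and 866 CPM in Malat1 ASO and 1071 to 1838 CPM (median 1376) in anti-TfR:Malat1. The widest spread was in Malat1 ASO, whose animals lay both above and below all saline animals. The log2 changes against saline were -0.05 (-0.53 to 0.44), 0.05 (-0.35 to 0.45) and 0.19 (-0.26 to 0.65) for OTV:Malat1, anti-TfR:Malat1 and Malat1 ASO, and -0.10 (-0.54 to 0.35) between the carriers.

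Stab1 was also the only member with enough UMIs to be tested in microglia, where 8685 genes were tested and 0% passed in each comparison by edgeR and by DESeq2 (197 to 395 at an unadjusted p under 0.05). Its microglial level was 187, 226, 168 and 226 CPM in saline and 208, 144 and 144 CPM in OTV:Malat1. The log2 changes were -0.32 (SE 0.20, adjusted p = 0.975) for OTV:Malat1, -0.23 (SE 0.16) for anti-TfR:Malat1 and -0.05 (SE 0.17) for Malat1 ASO. A fit of both classes together, over 6924 genes, asked whether a change differed between them: for Stab1 the difference was 0.25 (-0.29 to 0.79) in OTV:Malat1 and none of the 9 members passed (0% of genes in each comparison by edgeR and by DESeq2, with 256 to 283 at an unadjusted p under 0.05). For the other members this fit had up to 10 UMIs per animal in microglia and its intervals were wide.

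F13a1 was at 3662, 3161, 3754 and 3107 CPM in saline and at 3780, 5416, 4263 and 3821 CPM in Malat1 ASO. Every Malat1 ASO animal was thus above every saline animal, the nearest being at 3780 and 3754 CPM. The log2 change was 0.35 (-0.02 to 0.73), with an adjusted p of 0.974. F13a1 was the only one of the 5 tested members whose groups did not overlap in this comparison, where 3.94% of the 964 genes did not. In OTV:Malat1 it was at 3559, 3590 and 5185 CPM and in anti-TfR:Malat1 at 2956 to 4775 CPM (median 3859), both overlapping saline, with log2 changes of 0.25 (-0.15 to 0.65) and 0.18 (-0.16 to 0.52).

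For Cd163 the estimate in Malat1 ASO had the opposite sign. It was at 390, 268, 491 and 907 CPM in saline and at 268, 406, 160 and 306 CPM in Malat1 ASO, from 5 to 9 UMIs per animal. The groups overlapped, and 3 of 4 Malat1 ASO animals were below the saline animal of the same batch number. The log2 change was -0.87 (-1.64 to -0.11), with an adjusted p of 0.974 and so not called. It was -0.45 without saline replicate 4, the animal at 907 CPM, and -1.22 with DESeq2, the ends of the range over all alternatives. In the 3 OTV:Malat1 animals Cd163 was at 639, 791 and 346 CPM and in anti-TfR:Malat1 at 358 to 769 CPM (median 523), with log2 changes of 0.29 (-0.38 to 0.96) and 0.09 (-0.49 to 0.67).

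**Figure D5:**
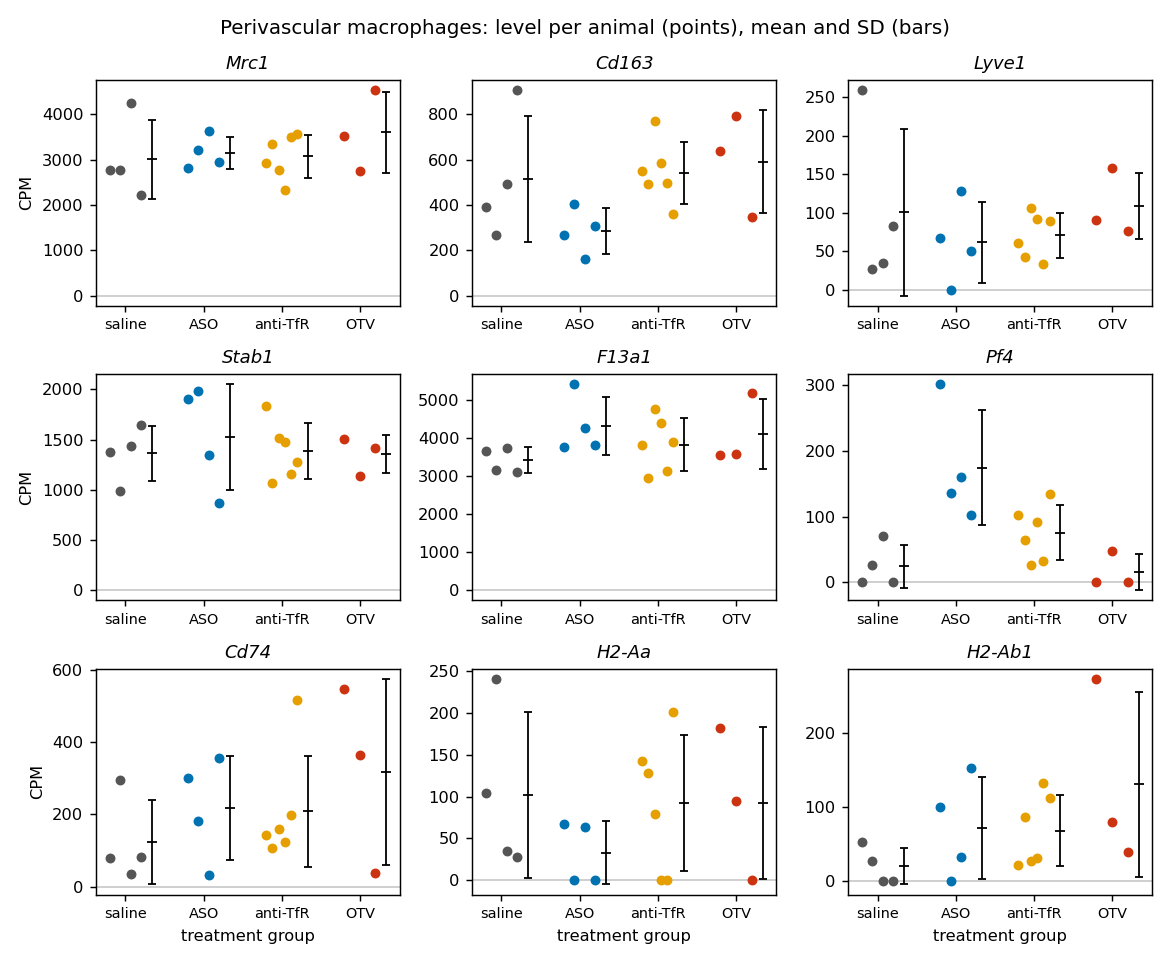
Level of each member in perivascular macrophages, as CPM per animal (points) in the 4 treatment groups, with the mean and SD as bars; the axes differ between panels. Groups overlap in most panels; in Malat1 ASO all animals lie above all saline animals for F13a1 and Pf4.

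Pf4 rested on few UMIs and was not tested in the main fit. Saline animals held 0, 1, 2 and 0 UMIs (0, 26.8, 70.2 and 0 CPM) and Malat1 ASO animals 9, 3, 5 and 2 UMIs (301, 135, 160 and 102 CPM). All 4 Malat1 ASO animals were above all 4 saline animals. Over all 9 members, the groups of this comparison did not overlap for 2, F13a1 and Pf4, beside 1.41% of the 15506 genes with a UMI in the class. Without a filter on low counts the log2 change of Pf4 was 2.72 (1.19 to 4.24), and its adjusted p over 15506 genes was 0.800. Anti-TfR:Malat1 animals had 26.5 to 134 CPM (median 78.2) and OTV:Malat1 animals 0, 47.4 and 0 CPM, so both overlapped saline, and the unfiltered changes were 1.72 (0.16 to 3.28; adjusted p = 0.820) and 0.19 (-1.96 to 2.34). In the 3 other comparisons no member's groups were apart, beside 3.13%, 0.613% and 1.46% of the 15506 genes and 5.71%, 1.14% and 1.87% of the 964 for OTV:Malat1 and anti-TfR:Malat1 against saline and for OTV:Malat1 against anti-TfR:Malat1.

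Lyve1 held 0 to 10 UMIs per animal. It was at 260, 26.8, 35.1 and 82.5 CPM in saline, at 66.9, 0, 128 and 50.9 CPM in Malat1 ASO and at 91.2, 158 and 76.8 CPM in OTV:Malat1. The anti-TfR:Malat1 animals were between 33.0 and 106 CPM. All groups overlapped, and the highest animal was a saline one.

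Among the class II genes, Cd74 was at 77.9, 295, 35.1 and 82.5 CPM in saline and at 547, 364 and 38.4 CPM in OTV:Malat1. It was at 301, 181, 32.1 and 357 CPM in Malat1 ASO and at 107 to 515 CPM (median 151) in anti-TfR:Malat1. 2 of 3 OTV:Malat1 animals were above all saline animals and the other was among the lowest of all 17. The log2 change in OTV:Malat1 was 1.30 (0.05 to 2.56), with an adjusted p of 0.981. Without the low OTV:Malat1 animal, replicate 3, it was 1.75 (adjusted p = 0.664), and without saline replicate 2, the high saline animal, it was 2.20 (adjusted p = 0.826). With the deposited label in all clusters it was 0.84, the lowest of all alternatives. For anti-TfR:Malat1 it was 0.72 (-0.42 to 1.86; 0.16 to 1.62 over all alternatives), for Malat1 ASO 0.70 (-0.64 to 2.04; 0.22 to 1.57) and between the carriers 0.58 (-0.47 to 1.63).

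The estimates for its partners differed in sign. H2-Aa was at 104, 241, 35.1 and 27.5 CPM in saline, at 182, 94.9 and 0 CPM in OTV:Malat1 and at 66.9, 0, 64.1 and 0 CPM in Malat1 ASO, and at 0 to 202 CPM (median 104) in anti-TfR:Malat1. H2-Ab1 was at 51.9, 26.8, 0 and 0 CPM in saline, at 274, 79.1 and 38.4 CPM in OTV:Malat1 and at 100, 0, 32.1 and 153 CPM in Malat1 ASO, and at 20.4 to 132 CPM (median 58.2) in anti-TfR:Malat1. Both overlapped in every comparison, and neither reached an adjusted p under 0.05 without the filter. For OTV:Malat1 against saline the unfiltered log2 change was -0.32 (-1.60 to 0.97) for H2-Aa and 2.12 (0.42 to 3.83) for H2-Ab1, the latter from 3 UMIs in 4 saline animals. In Malat1 ASO it was -1.56 (-3.09 to -0.03) for H2-Aa and 1.35 (-0.52 to 3.22) for H2-Ab1, both with an adjusted p of 0.800. In anti-TfR:Malat1 it was -0.05 (-1.10 to 1.00) for H2-Aa and 1.50 (-0.12 to 3.12) for H2-Ab1, so the H2-Ab1 estimate was above 0 in each treated group against the same 4 saline animals.

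None of the other listed border macrophage and class II genes was called either. Of 34 listed border macrophage genes other than the members, 16 were tested, and of 16 listed class II presentation genes, 3 were; none passed in any of the 4 comparisons. The median log2 change of the 16 border macrophage genes was 0.08, 0.08 and 0.25 for OTV:Malat1, anti-TfR:Malat1 and Malat1 ASO against saline, beside -0.03, -0.01 and 0.01 over all 964 genes. The summed level of the whole border macrophage list was 11063 to 15141 CPM in saline, 12379 to 14904 CPM in Malat1 ASO, 11759 to 14830 CPM in anti-TfR:Malat1 and 12547 to 13865 CPM in OTV:Malat1. Every treated animal was inside the saline range. The neuronal list, read as a measure of RNA from other nuclei, summed to 1350 to 2175 CPM in saline and 803 to 2751, 1568 to 2732 and 1597 to 1805 CPM in the same order. The oligodendrocyte list summed to 390 to 804 CPM in saline, 451 to 764 CPM in Malat1 ASO, 330 to 750 CPM in anti-TfR:Malat1 and 461 to 1328 CPM in OTV:Malat1. The 1 gene of that list tested in perivascular macrophages had a log2 change of 0.73 in OTV:Malat1 against saline and was not called; in microglia the median of its 6 genes was 0.59. The astrocyte list summed to 31.6 to 45.6 CPM in OTV:Malat1, below every saline (53.6 to 208 CPM), Malat1 ASO (50.9 to 201 CPM) and anti-TfR:Malat1 animal (53.1 to 154 CPM). Each OTV:Malat1 sum was under 3 UMIs, which would be 137, 47.4 and 115 CPM in replicates 1 to 3. Groups were also apart for 3.13% of the 15506 genes with a UMI in OTV:Malat1 against saline. The part of RNA from other cells in the values above was not tested.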

How the data were processed

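The deposited table held integer UMI counts per gene and nucleus, per the file headers, and the counts of each nucleus summed to the total in the deposited metadata. Per the submitters' processing notes, Cell Ranger 6.0.1, Seurat 4 and build mm10 were used by the authors, with no settings given in the sources used here. Labels, clusters (Seurat resolution 0.4), doublet calls and a batch number, whose meaning is not stated, were also deposited by the authors, and 11 metadata columns were not used. Deposited nuclei had 500 or more UMIs.

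A class was a deposited label within the cluster whose leading genes fit it; 14734 nuclei were in no class. The 596 perivascular macrophage nuclei held 1 doublet and the 8092 microglia 3 by the authors' call, and none was removed. UMIs were summed per animal (20 or more nuclei of the class) and tested with edgeR 4.0.16 (limma 3.58.1) in R 4.3.3: filterByExpr, TMM, glmQLFit and glmQLFTest on all 17 animals, two-sided, adjusted over all genes tested, threshold 0.05. Differences between classes used log2(CPM + 1), a pseudocount of 1 CPM that understates the change of low genes. Intervals of pooled counts were exact (Clopper-Pearson for shares, Poisson or its binomial form for levels and ratios) at 95%. Thinning drew 500 UMIs from each nucleus. All else used pandas 2.3.3, scipy 1.17.1, numpy 2.4.6 and matplotlib 3.10.9 in Python 3.11.15. The scripts were tested on simulated data.

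Every comparison with saline uses the same 4 animals. Each sample was taken as 1 animal; the labels give no culture, litter or cage, so p-values measure only the spread between these samples. Members, gene lists and class joins were chosen with earlier results of these data known. Named were all members, Malat1, levels of at most 6 genes per list, and the 8 genes most like the members by their class difference. Genes named beyond this rule (Slc40a1, Cbr2, Cd209a, Cd209b, Cd209f, C1qa, Ptprc, St18, Meg3, P2ry12, Cx3cr1, and those called only under an alternative) were chosen after their values were seen; most listed genes are not named. Alternatives were DESeq2 1.42.0, other filters and scalings, the deposited label in all clusters, no doublets, nuclei of 1000 or more UMIs, blocks, and each animal left out.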

Additional observations from a re-analysis of the deposited data

Results flagged for a closer look

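Dixon's criterion at its 95% level, which chance meets in about 1 of 20 groups, was applied to 35 sets of 4 or 6 animals. The OTV:Malat1 group (n = 3) was not examined. In each of 2 sets, both of Cd74 values, 1 animal stood apart from its group. In perivascular macrophages, replicate 6 of anti-TfR:Malat1 was at 515 CPM of Cd74 (23 UMIs), where the median of its group was 151 CPM. In microglia, replicate 3 of anti-TfR:Malat1 was at 6.21 CPM of Cd74, from 2 UMIs.

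The 61 nuclei labelled perivascular macrophages outside cluster 11 entered no comparison but the alternative with the label in all clusters, and still carried all 9 genes. Mrc1 was at 1280 CPM in them, F13a1 at 1717 CPM, Stab1 at 551 CPM and Cd163 at 209 CPM. Cd74 was at 120 CPM, Lyve1, Pf4 and H2-Aa at 38.0 CPM each, and H2-Ab1 at 31.7 CPM. These levels were above the microglial ones and below those of the 596 nuclei in cluster 11. The 61 nuclei had a median of 2171 UMIs, and 49 of them (80.3%) were doublets by the authors' call, against 1 of the 596. The part of doublets in these levels was not tested. In cluster 18, which held 53 of them, 1656 nuclei labelled neurons also had Mrc1 at 25.7 CPM and F13a1 at 35.1 CPM. Of these 1656 nuclei, 1414 (85.4%) were doublets by the authors' call.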

How the results depend on the processing

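No member passed the threshold under any alternative fitted for perivascular macrophages; the lowest adjusted p was 0.664, for Cd74 in OTV:Malat1 against saline without replicate 3 of OTV:Malat1. All 9 class differences kept their direction and moved by less than the spread between animals under the 4 alternatives that apply to them and with each animal left out. Of these alternatives, a minimum of 10 nuclei per animal repeats the main setting, since every animal had 22 or more, and so could not differ. Leaving out doublets removed only 1 of 596 and 3 of 8092 nuclei. The genes that passed elsewhere in perivascular macrophages were 1, Malat1, for OTV:Malat1 against saline without the filter, with the replicate block and with the batch block (adjusted p = 0.0271 with the replicate block). In microglia Malat1 was the 1 gene called in that comparison without the filter, with the deposited label in all clusters, with the replicate block, with the batch block, and without saline replicate 4, so that leaving out 1 animal gave 0 to 1. Without the filter microglia also gave 3 genes for Malat1 ASO against saline (Nrxn3, Tsix, Gm47283) and 2 for OTV:Malat1 against anti-TfR:Malat1 (Malat1 among them). The difference between the classes gave 0 to 1 genes for OTV:Malat1 against saline when 1 animal was left out, the 1 being Cradd without OTV:Malat1 replicate 1. In each case the cause was not tested.

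Changes near 0 turned sign. DESeq2 put Mrc1 at -0.22 and Stab1 at -0.13 in Malat1 ASO against saline, and Mrc1 at -0.010 and F13a1 at -0.11 in OTV:Malat1 against anti-TfR:Malat1. Without the filter Mrc1 was at -0.11 and Stab1 at -0.010 in Malat1 ASO, and F13a1 at -0.032 between the carriers. With the replicate block Mrc1 was at -0.0162 in anti-TfR:Malat1 against saline and F13a1 at -0.021 between the carriers. For Stab1 in OTV:Malat1 against saline the change was 0.034 with the deposited label in all clusters and 0.014 with the batch block. In nuclei of 1000 or more UMIs Mrc1 was at -0.28 between the carriers. With 1 animal left out, OTV:Malat1 against saline ranged from -0.11 to 0.75 for Cd163 and from -0.17 to 0.079 for Stab1. Anti-TfR:Malat1 against saline ranged from -0.051 to 0.29 for Mrc1, -0.12 to 0.54 for Cd163 and -0.067 to 0.17 for Stab1. Malat1 ASO against saline ranged from -0.041 to 0.33 for Mrc1. Between the carriers the ranges were -0.20 to 0.48 for Cd163, -0.17 to 0.023 for Stab1 and -0.074 to 0.16 for F13a1.

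For samples with the same replicate number, the correlation of their deviations from the group means, across genes, had a median of 0.023 over 21 pairs (-0.099 to 0.13), and 4 pairs were over 0.1. For animals of the same deposited batch number the median was 0.051 over 27 pairs, with 5 over 0.1, and for other batches -0.018 over 79 pairs, with 2 over 0.1. In nuclei of 1000 or more UMIs no saline animal kept 20 perivascular macrophage nuclei, so the comparisons against saline and the difference between the classes were not run there. Depth limits the low members: Pf4, H2-Aa, H2-Ab1 and Lyve1 had 0 to 10 UMIs per animal.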
